A study of Mus musculus with 4 samples.

Results

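The genes described here make cholesterol, put double bonds into fatty acids and lengthen fatty acid chains, together with the regulators that switch this programme on and off. They were a list of 33 mouse gene symbols, and a gene was measured when a probe set of the array carried exactly 1 gene symbol in the platform annotation. Scd1 and Fads2 had 2 such probe sets, of which the brighter on average stands for the gene. This gave 30 of the 33 genes, out of 30145 genes with a probe set of their own in the series. The probe sets of Srebf1, Scd2 and Msmo1 each carry a further symbol in the annotation, so these 3 genes are not analysed here.

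Cells build cholesterol from acetyl-CoA through mevalonate, farnesyl pyrophosphate, squalene and lanosterol, and build fatty acids from the same acetyl-CoA by way of malonyl-CoA and palmitate. The sterol regulatory element-binding proteins (SREBPs) are transcription factors held in the endoplasmic reticulum membrane by INSIG proteins while sterols are plentiful. When sterols run low, SCAP carries them to the Golgi, where they are cut free to enter the nucleus and drive most of the enzymes named here. Elongases and desaturases then turn palmitate and dietary fatty acids into the longer and less saturated chains found in membranes.

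Each of the 4 arrays held RNA of lineage-negative, c-Kit-positive (LK) cells, a population in which blood-forming stem and progenitor cells are concentrated, from NOD mice, a strain that develops autoimmune diabetes. All cells were kept for 4 h at 37 °C in StemSpan medium. The vehicle group (2 arrays) received DMSO, and the combination group (2 arrays) received dmPGE2, a stable analog of prostaglandin E2, and the glucocorticoid dexamethasone, each at 10 µM. The labels number the arrays 1 and 2 in each group and do not say whether a number stands for a shared source of cells. They also give no array with either drug alone, no sex and no age. The duplicates are called biological in the design text, without the mice behind each, so p-values measure the spread between these samples, part of which may be technical.

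Each value is a log2 RMA signal, which is read within a gene and not between genes. Array medians over 65956 probe sets were 4.36 to 4.44, and the highest of 23 background probe sets reached 5.55. All 9 measured stem and progenitor markers, Kit, Cd34 and Ptprc among them, lay above that value on every array, and all 7 measured T and NK cell markers lay below it. The arrays of the same group were not alike in the signals of genes of maturing cells. Neutrophil granule genes stood far higher on both arrays numbered 1 than on those numbered 2: Ngp was at 14.82 and 8.69 on the vehicle arrays and at 14.98 and 9.93 on the combination arrays, and Camp at 13.51 and 7.63 and at 12.80 and 8.41. Of the 12 neutrophil markers, 9 were higher with number 1 in both groups, as were 5 of 7 erythroid markers, against 26.3% of all features. Ly6g and Mmp9 of the neutrophil list stayed under the highest background value on every array. In bulk RNA a smaller number of cells of one type and less RNA per cell cannot be told apart.

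No gene of the list passed limma's test after Benjamini-Hochberg adjustment over all features, a threshold that 2 of 65956 features (0.00303%) passed. At an unadjusted p under 0.05 in limma, Elovl5 was higher after the combination and Elovl7, Elovl1 and Scap were lower, that is 1 and 3 of 30, against 3.14% of all features higher and 2.44% lower. Both combination arrays lay below both vehicle arrays for 8 of the 30 genes (13.9% of all features), and above them for 2 (20.4%). Within both replicate numbers, the combination array was the lower one for 15 genes (23.4% of all features) and the higher one for 5 (31.0%). The median difference of the 30 genes was -0.17 on the log2 scale, namely -0.25 for number 1 alone and -0.08 for number 2 alone, against a median of 0.02 over all features. Leaving out vehicle 1 turned this median to 0.08 and leaving out combination 2 brought it to 0.01, whereas it was -0.36 without vehicle 2 and -0.33 without combination 1.

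**Figure D1:**
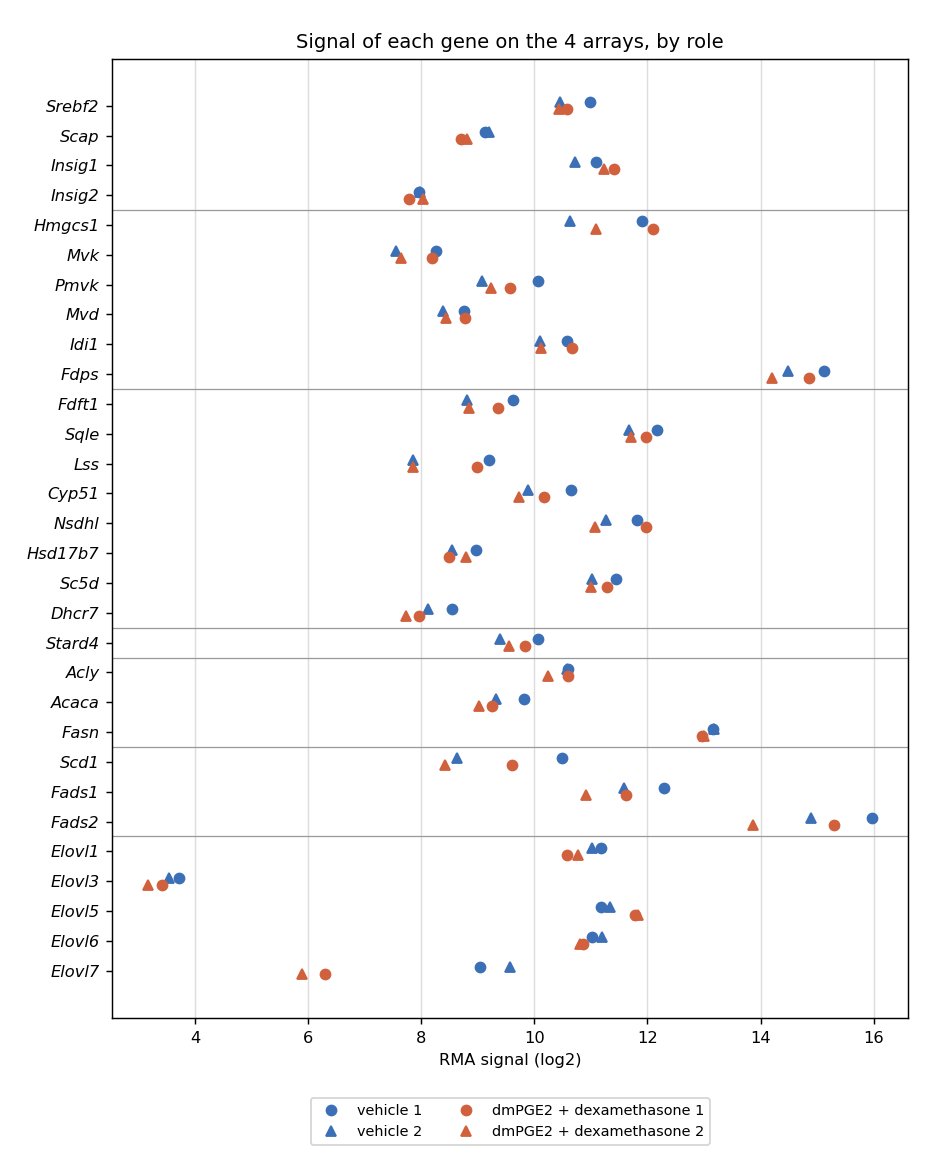
RMA signal (log2) of each of the 30 genes on the 4 arrays, in blocks by role from the SREBP regulators at the top to the elongases at the bottom; blue marks vehicle, orange the combination, circles number 1 and triangles number 2. Elovl7 separates the groups, from 9.05 and 9.57 to 6.31 and 5.89, while for Lss, Hmgcs1 and Scd1 the circles lie to the right of the triangles in both groups.

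The elongases held the largest difference of the 30 genes and 3 of the 4 genes at an unadjusted p under 0.05. Each ELOVL protein carries out the first, rate-setting condensation of the chain elongation cycle and prefers certain substrates. Elovl7, which lengthens saturated and monounsaturated long chains, gave signals of 9.05 and 9.57 on the vehicle arrays and 6.31 and 5.89 on the combination arrays. The groups lay far apart, and the combination arrays were still above the highest background value. The difference of -3.21 (SE 0.25, 95% interval -3.88 to -2.54) is a 9.27-fold lower signal, with an adjusted p of 0.17 and an unadjusted p of 9.68e-05 in limma. Of the 30145 genes, 2 had a lower difference, and by p-value Elovl7 ranked 36 among all features. It held within number 1 (-2.74) and within number 2 (-3.69), and leaving out any 1 array kept it between -3.48 and -2.95.

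Elovl5 went the other way. It elongates polyunsaturated fatty acids, and its signals were 11.18 and 11.35 with vehicle and 11.77 and 11.83 with the combination. The groups did not overlap, with both combination arrays the higher, as in 20.4% of all features. The difference was 0.54 (SE 0.14, 1.45-fold, limma unadjusted p = 0.013, adjusted p = 0.78), with 0.59 within number 1 and 0.48 within number 2. The unadjusted p was 0.073 without vehicle 1 and 0.055 without combination 2.

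The remaining elongases were lower with the combination by smaller amounts. In each of them both combination arrays lay below both vehicle arrays, as in 13.9% of all features. Elovl1, which makes very long saturated and monounsaturated chains, was at 11.17 and 11.03 with vehicle and 10.58 and 10.78 with the combination, a difference of -0.42 (SE 0.15, limma unadjusted p = 0.040, adjusted p = 0.88). Leaving out vehicle 1 gave an unadjusted p of 0.17, vehicle 2 one of 0.077 and combination 1 one of 0.15. Elovl6, which extends palmitate to stearate, was at 11.01 and 11.20 against 10.86 and 10.80, a difference of -0.28 (95% interval -0.65 to 0.09). Elovl3 was at 3.72 and 3.54 against 3.41 and 3.18, under the highest background value on every array, so its difference of -0.34 has no clear signal behind it. The median of the 5 elongases, -0.34, is the value of Elovl3 itself and so rests on a gene under background.

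Markers of other cell types also differed between the groups, counted here at an unadjusted p under 0.05 in limma. Over all features, 3.14% were higher and 2.44% lower at that threshold. Of 8 dendritic cell markers, 3 (Cd209a, H2-Ab1 and Batf3) were lower after the combination at an unadjusted p under 0.05 in limma. The log2 of the summed signal of all 8 was 9.96 and 10.07 with vehicle and 8.95 and 8.81 with the combination. Cd209a and H2-Ab1 made up most of that sum on the vehicle arrays. Siglech, above the highest background value on every array, was slightly higher, at 6.36 and 6.30 with vehicle against 6.48 and 6.44. The other 4 of the 8, Xcr1 and Clec9a among them, were under the highest background value throughout. Of 12 monocyte and macrophage markers 3 were higher and 4 lower, and of 12 neutrophil markers 3 were higher and 0 lower. Of 8 stromal and fat cell markers, Lepr (11.2-fold), Fabp4 (6.33-fold) and Adipoq were higher. The log2 of the summed signal of all 8 was 7.75 and 7.69 with vehicle and 9.34 and 9.22 with the combination. Lepr and Fabp4 made up most of that sum on the combination arrays. Of the 8, 5 were under the highest background value on every array, Adipoq itself, Col1a1 and Cxcl12 among them. Myb and Cd48 of 9 stem and progenitor markers and Ebf1 and Blnk of 7 B cell markers were lower. Ebf1 was under the highest background value on every array. Ppbp was the higher one of 6 megakaryocyte and platelet markers (45.8-fold), with both vehicle arrays under the highest background value. Of 7 mast cell and basophil markers Hdc was higher (3.26-fold) and Ms4a2 lower, and of 7 erythroid markers Tfrc was lower. No T and NK cell marker passed. The part of these shifts in the Elovl7 and Elovl5 differences was not tested.

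The promoters of Elovl7 and Elovl5 are shown because these genes of one family differed in opposite directions. The sequences are the 250 bases before the transcription start in RefSeq (GRCm38.p6, plus strand of chr13:108214154-108214403 and chr9:77917115-77917364), with the letters CCAAT, read on either strand and known as the core of the NF-Y site that often lies beside SREBP sites, in capitals.
Elovl7: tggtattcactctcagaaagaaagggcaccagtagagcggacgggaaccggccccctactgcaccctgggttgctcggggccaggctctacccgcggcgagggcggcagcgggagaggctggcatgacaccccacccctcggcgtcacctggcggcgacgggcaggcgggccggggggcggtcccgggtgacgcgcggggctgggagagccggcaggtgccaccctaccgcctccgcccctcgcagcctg
Elovl5: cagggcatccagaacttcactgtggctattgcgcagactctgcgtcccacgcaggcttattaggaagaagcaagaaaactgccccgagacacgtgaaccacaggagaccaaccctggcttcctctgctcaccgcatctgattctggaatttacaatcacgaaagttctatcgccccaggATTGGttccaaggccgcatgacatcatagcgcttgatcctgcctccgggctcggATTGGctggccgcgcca
The Elovl5 window holds these letters at 2 places and the Elovl7 window at none, but they also lie in the window of Elovl1, which was lower like Elovl7. The full Elovl5 window, which runs 50 bases past the start, also holds the E-box CACGTG and the cAMP response element TGACGTCA. Over all 32851 promoter windows of this length, CCAAT was found in 37.4%, CACGTG in 7.15% and TGACGTCA in 1.79%, on either strand.

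The enzymes that carry out the other steps of the elongation cycle were on a list of further pathway genes. After condensation, HSD17B12 reduces the chain, a HACD protein removes water and TECR reduces it again. All 6 measured genes of these steps had differences below 0, as had 44.6% of all features, from -0.78 to -0.08 with a median of -0.45. Of the 6, Hacd4 and Hacd3 were lower at an unadjusted p under 0.05 in limma, against 2.44% of all features. Hacd3 was at 8.56 and 8.82 with vehicle and 8.26 and 8.17 with the combination, a difference of -0.47 (SE 0.15, unadjusted p = 0.031, adjusted p = 0.84). Hacd4 was at 4.99 and 4.84 against 4.13 and 4.15, a difference of -0.78 (unadjusted p = 0.0028, adjusted p = 0.50), all under the highest background value. The other 4 are named for their place in the cycle. Hacd1 differed by -0.43 and Tecr by -0.53, both with both combination arrays below both vehicle arrays, as in 13.9% of all features. Hacd2 differed by -0.29 and Hsd17b12 by -0.08 with overlapping groups.

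**Figure D2:**
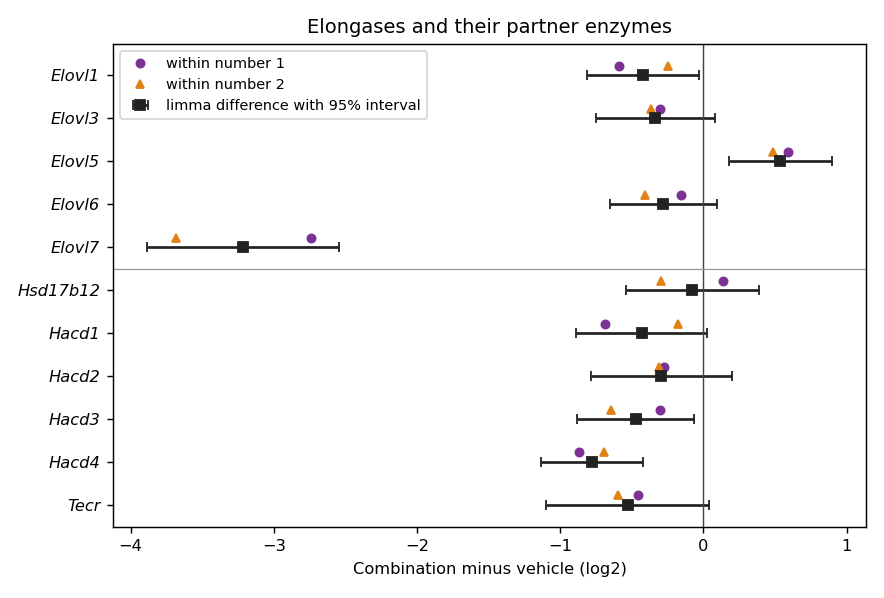
Difference between combination and vehicle (log2) for the 5 elongases, above the line, and 6 partner enzymes of the elongation cycle, below it; black squares with bars are limma's differences with 95% intervals over 2 arrays per group, and purple circles and orange triangles the differences within number 1 and number 2. Elovl7 stands at -3.21 and Elovl5 at 0.54, and the partner enzymes lie between -0.78 and -0.08.

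The 3 measured desaturases had lower signals with the combination within each replicate number, as had 23.4% of all features, but their groups overlapped. None reached an unadjusted p under 0.05 in limma with group as the only term. With the replicate number as a block, Fads1 and Fads2 did, as the last section gives, though the labels do not say that numbers pair the arrays. Fads2, which starts the desaturation of polyunsaturated fatty acids, was at 15.96 and 14.89 with vehicle and 15.30 and 13.87 with the combination. Combination 1 thus lay above vehicle 2, and the difference of -0.84 (SE 0.60, 95% interval -2.44 to 0.75) was -0.67 within number 1 and -1.02 within number 2. Without combination 1 it was -1.56 (unadjusted p = 0.042 in limma) and without combination 2 -0.13 (0.82). Its second probe set gave -0.78. Fads1, which acts later in the same pathway, was at 12.30 and 11.58 against 11.63 and 10.91, a difference of -0.67 (SE 0.36, limma unadjusted p = 0.13) that was -0.67 within both numbers. Scd1 makes monounsaturated fatty acids and was at 10.49 and 8.63 against 9.61 and 8.43, with differences of -0.88 within number 1 and -0.20 within number 2. Its second probe set lay under the highest background value on all arrays.

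The median of the 3 desaturases was -0.67, with -0.67 for either number. It was -0.30 without vehicle 1, -0.13 without combination 2, -1.13 without combination 1 and -1.38 without vehicle 2. Scd3, a close paralog of Scd1 from the list of further genes, went in the other direction, from 5.34 and 5.25 to 6.27 and 5.98, a difference of 0.83 (SE 0.16, limma unadjusted p = 0.0047, adjusted p = 0.58). Both of its vehicle signals were under the highest background value, and no source used here says whether the probe sets tell the Scd paralogs apart.

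The 3 measured genes of the route from citrate to palmitate had differences below 0, as had 44.6% of all features, and none reached an unadjusted p under 0.05 in limma. Acly, which makes cytosolic acetyl-CoA, differed by -0.17, Acaca, which makes malonyl-CoA, by -0.43 and fatty acid synthase (Fasn) by -0.18. Fasn arrays were close together within each group, at 13.16 ± 0.0090 with vehicle and 12.98 ± 0.030 with the combination (mean ± SD, n = 2 each), and the groups did not overlap. Its difference had a 95% interval of -0.51 to 0.15. Acaca was at 9.81 and 9.32 with vehicle and 9.25 and 9.03 with the combination, again without overlap (limma unadjusted p = 0.11). Both combination arrays lay below both vehicle arrays for 13.9% of all features. Acaca was lower within number 1 (-0.56) and within number 2 (-0.29), and the differences of Acly were 0.01 and -0.35. Without vehicle 1 the difference of Acaca was -0.18, and without vehicle 2 it was -0.67 (unadjusted p = 0.036 in limma).

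Among the regulators, Scap was lower with the combination, and Insig1 was the one with a difference above 0. Scap, the escort of the SREBPs, gave 9.12 and 9.20 with vehicle and 8.71 and 8.81 with the combination. The groups did not overlap, with both combination arrays the lower, as in 13.9% of all features. The difference was -0.40 (SE 0.13, limma unadjusted p = 0.032, adjusted p = 0.85), -0.41 within number 1 and -0.39 within number 2. Its unadjusted p lay between 0.064 and 0.13 when any 1 array was left out. Insig1, which retains SCAP and is itself an SREBP target, was at 11.08 and 10.71 against 11.41 and 11.22. Its groups did not overlap either, with both combination arrays the higher, as in 20.4% of all features. The difference of 0.42 (SE 0.19, limma unadjusted p = 0.078) was 0.33 and 0.51 within the numbers. It was 0.60 (unadjusted p = 0.044 in limma) without vehicle 1, 0.23 (0.32) without vehicle 2, 0.32 (0.25) without combination 1 and 0.51 (0.10) without combination 2. Insig2 was at 7.96 and 7.98 against 7.78 and 8.04, with overlapping groups and a difference of -0.06 (95% interval -0.46 to 0.34). Srebf2, the SREBP gene most tied to cholesterol synthesis, was at 10.98 and 10.45 against 10.57 and 10.44, with differences of -0.41 within number 1 and -0.01 within number 2.

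Of the 14 enzymes of cholesterol synthesis, 0 reached an unadjusted p under 0.05 in limma between the treatments, and their median difference was -0.09. Along the mevalonate part, Hmgcs1, which makes HMG-CoA, differed by 0.33 (95% interval -1.12 to 1.79), and the kinases and decarboxylase Mvk, Pmvk and Mvd by 0.01, -0.17 and 0.04. Idi1, the isomerase of the isoprenoid unit, differed by 0.06 and the farnesyl pyrophosphate synthase gene Fdps by -0.28. The median of these 6 genes was 0.02, and it was 0.31 without vehicle 1, 0.25 without combination 2, -0.32 without vehicle 2 and -0.24 without combination 1. Centring each array on its median turned the differences of Mvk and Mvd to -0.04 and -0.01.

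From squalene to cholesterol, all 8 measured enzymes had differences below 0 (44.6% of all features) with a median of -0.11, but 7 of the 8 changed sign when 1 array was left out. The exception was Dhcr7, which carries out the last step. It alone of the 8 had groups that did not overlap, with both combination arrays the lower, as in 13.9% of all features. Dhcr7 was at 8.55 and 8.11 with vehicle and 7.97 and 7.73 with the combination, a difference of -0.49 (SE 0.21, limma unadjusted p = 0.070, adjusted p = 0.91), -0.59 within number 1 and -0.39 within number 2. It was -0.71 (unadjusted p = 0.033 in limma) without vehicle 2 but -0.27 (0.28) without vehicle 1, -0.61 (0.085) without combination 1 and -0.37 (0.24) without combination 2. Cyp51, which demethylates lanosterol, differed by -0.32, the squalene synthase gene Fdft1 by -0.12, the lanosterol synthase gene Lss by -0.11, squalene epoxidase (Sqle) and the sterol desaturase Sc5d by -0.08 each, and the demethylation complex genes Hsd17b7 and Nsdhl by -0.11 and -0.01. The median of these 8 was -0.25 within number 1 and -0.00083 within number 2. Leaving out an array gave 0.15 for vehicle 1, 0.050 for combination 2, -0.43 for vehicle 2 and -0.42 for combination 1. Stard4, which carries sterols between membranes, differed by -0.03, a value that turned to 0.0016 after a second quantile normalization.

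**Figure D3:**
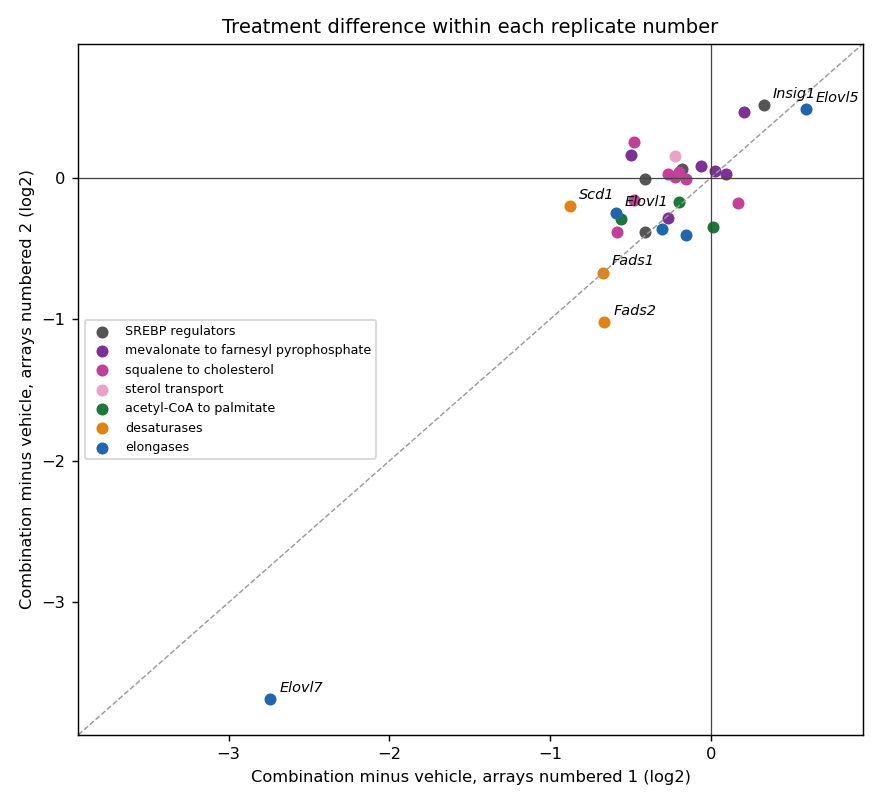
Combination minus vehicle (log2) for the 30 genes, for the number 1 pair of arrays (horizontal axis) and the number 2 pair (vertical axis); colours give the role, solid lines mark 0 and the dashed line equal values. Elovl7 lies at -2.74 and -3.69 and Elovl5 at 0.59 and 0.48, while the sterol enzymes lie between -0.59 (Dhcr7) and 0.20 (Hmgcs1) on the horizontal axis and between -0.39 (Dhcr7) and 0.46 (Hmgcs1) on the vertical one.

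In size, most sterol enzymes and the desaturases differed more between the replicate numbers than between the treatments. For Fads1 the sizes were close, 0.72 between numbers and -0.67 between treatments. The comparison of numbers was added after the values were seen and took number 1 against number 2 in a limma fit that held both group and number. The treatment tests above came from a fit with group alone, whose spread includes the number difference, so the calls of these fits are not like for like. At an unadjusted p under 0.05, 13 of the 30 genes were higher with number 1 and 0 lower, against 5.35% and 4.8% of all features. None of the 30 passed after adjustment over all features, which 0.0606% of the features did. The 13 were 9 of the 14 sterol enzymes, Stard4 and all 3 desaturases, and there was no elongase, regulator or enzyme of the citrate to palmitate route among them. In both groups, 22 of the 30 genes were higher with number 1 (26.3% of all features), 13 of the 14 sterol enzymes among them.

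For the genes with the largest of these differences, it was seen on the vehicle and the combination arrays. Scd1 was higher with number 1 by 1.86 on the vehicle arrays and by 1.18 on the combination arrays, 1.52 in the fit (SE 0.21, 2.86-fold, limma unadjusted p = 0.0012, adjusted p = 0.21). Lss was at 9.20 and 7.85 with vehicle and 8.98 and 7.86 with the combination, 1.24 in the fit (SE 0.15, 2.35-fold, unadjusted p = 0.00069, adjusted p = 0.15). Hmgcs1 was at 11.90 and 10.63 against 12.10 and 11.09, 1.14 in the fit (SE 0.15, 2.20-fold). Fads2 differed by 1.26 and Nsdhl, Fads1, Fdft1, Pmvk, Fdps, Mvk, Cyp51 and Idi1 by 0.52 to 0.72. The difference between numbers was larger than that between treatments for 12 of the 14 sterol enzymes, for all 3 desaturases and for 0 of the 5 elongases, against 52.0% of all features.

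Most neutrophil markers were higher with number 1 too, and the erythroid markers were divided. Ngp, Camp and Ltf differed by 5.59, 5.13 and 4.48 between number 1 and number 2 in the same fit, with the log2 of the summed signal of the 12 neutrophil markers at 16.52 and 14.39 on the vehicle arrays and 16.68 and 15.38 on the combination arrays. The summed erythroid markers were at 14.41 and 13.48 and at 14.05 and 13.30, but Ermap, at 13.80 and 11.98 and at 13.61 and 12.07, made up most of that sum on the arrays numbered 1. Slc4a1 and Alas2, of the same list, were lower with number 1 in both groups, with differences of -1.32 and -1.56 in the fit. None of the 9 stem and progenitor markers was higher with number 1 in both groups. The part of these cells in the sterol gene difference was not tested.

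**Figure D4:**
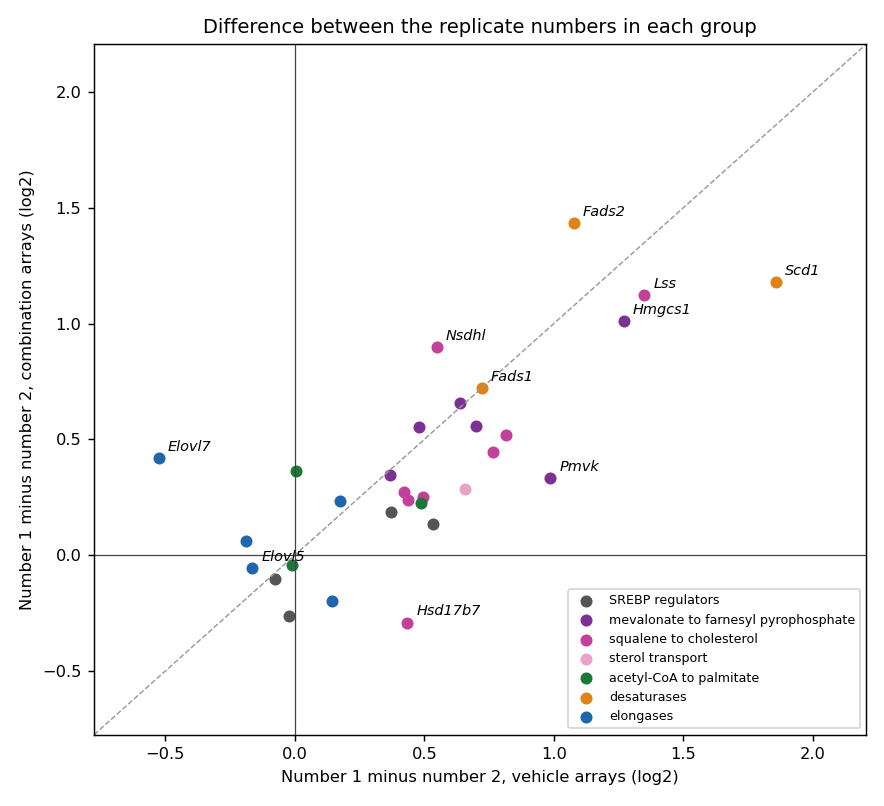
Number 1 minus number 2 (log2) for the 30 genes, on the vehicle arrays (horizontal axis) and on the combination arrays (vertical axis); colours give the role, solid lines mark 0 and the dashed line equal values. Scd1 (1.86 and 1.18), Lss (1.35 and 1.12), Hmgcs1 (1.27 and 1.01) and Fads2 (1.08 and 1.43) lie far up to the right, while Elovl7 (-0.53 and 0.42) has opposite signs in the groups.

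After most sterol enzymes were seen to be higher with number 1, the promoters of all 33 listed genes were read for letters of SREBP and NF-Y sites. The windows therefore include elongases, regulators and the unmeasured Srebf1 and Msmo1, and the shares do not describe the genes that were higher with number 1. RefSeq promoter windows, 250 bases before to 50 after the start, were matched for 25 of the 33 genes, 34 windows in all. CCAAT on either strand was found in 21 of the 34 windows (61.8%), against 37.4% of all windows, and CACGTG in 7 (20.6%) against 7.15%. By gene these are 20 and 6 of the 25, since some genes have several windows, and the overlapping windows of Scap hold the same CACGTG. The 6 were Dhcr7, Elovl5, Hsd17b7, Insig1, Sc5d and Scap, none of them at an unadjusted p under 0.05 between the numbers in limma. Fdps, Fdft1, Stard4, Scd1 and Fads1, which were, had no window. TCACNCCAC, a sterol regulatory element, was found in 1 window, that of Hmgcs1, against 1.24% of all windows. The palindromic glucocorticoid response element and the LXR response element were found in none of the 34 windows, with 0.475% and 0.0213% of all windows holding them. Matches of letters describe these windows and do not show binding.

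The windows of 3 enzymes that were higher with number 1, Hmgcs1, Idi1 and Lss, and of Mvd, which missed that threshold (unadjusted p = 0.057 in limma), show how the letters lie. TCACNCCAC is in capitals for Hmgcs1 and CCAAT, on either strand, for the others. The places are chr13:119690194-119690242 for Hmgcs1, chr13:8885541-8885605 for Idi1 and chr10:76531523-76531567 for Lss, all on the plus strand, and chr8:122443425-122443502 on the minus strand for Mvd (GRCm38.p6).
Hmgcs1: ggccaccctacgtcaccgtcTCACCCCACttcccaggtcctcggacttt
Idi1: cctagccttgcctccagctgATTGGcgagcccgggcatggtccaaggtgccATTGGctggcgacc
Lss: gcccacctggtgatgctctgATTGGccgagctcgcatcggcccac
Mvd: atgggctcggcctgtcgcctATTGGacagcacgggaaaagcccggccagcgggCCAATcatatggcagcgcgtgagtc
Idi1 and Mvd hold the letters at 2 places each and Lss at 1, all within 100 bases before the start.

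Further genes of the pathway, from 4 lists beside the 33, were measured for 43 of 54 symbols. At an unadjusted p under 0.05 in limma, 4 were higher and 3 lower after the combination, against 3.14% and 2.44% of all features, 0 passed after adjustment, and their median difference was -0.08. Of 11 genes of sterol export, storage and trafficking, 3 were higher and 1 lower. Ch25h, which makes the oxysterol that blocks SREBP processing, was at 4.04 and 3.87 with vehicle and 5.61 and 5.91 with the combination, a difference of 1.80 (SE 0.17, limma unadjusted p = 0.00021, adjusted p = 0.22). Both combination arrays were just above the highest background value and both vehicle arrays below it. The sterol exporter Abca1 differed by 0.77 (unadjusted p = 0.014, adjusted p = 0.78), with 3 of its 4 arrays under that value, and Npc2, which moves cholesterol out of lysosomes, by 0.39 from 8.21 and 8.34 to 8.73 and 8.60 (unadjusted p = 0.040, adjusted p = 0.88). The lower gene was Mylip, whose product degrades the LDL receptor, with a difference of -0.48 (unadjusted p = 0.042 in limma, adjusted p = 0.88); it is named after its value was seen.

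In the other lists few genes differed between the treatments. Of 7 further sterol enzymes and uptake genes none reached an unadjusted p under 0.05, and Ebp, Lbr and Tmem97 differed by -0.28, -0.25 and -0.31. The same held for 7 genes of SREBP processing, where Sec24d, a coat protein of vesicles leaving the endoplasmic reticulum, was at 7.93 and 8.59 with vehicle and 8.72 and 9.56 with the combination, a difference of 0.88 (limma unadjusted p = 0.070), and Rnf139 and Tmem33 differed by -0.14 and -0.10. Among the 18 further fatty acid genes, 1 was higher and 2 lower, which are Scd3, Hacd4 and Hacd3 given above. Acss2 and Slc25a1, which supply acetyl-CoA and citrate and were picked after their values were seen, differed by 1.49 and 0.99 between number 1 and number 2 in limma (unadjusted p = 0.0031 and 0.0013, adjusted p = 0.26 and 0.21).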

How the data were processed

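One array per sample was measured, 2 per group, 10 ng of total RNA each. The authors deposited log2 values, one per probe set and array; the submitters' processing notes name RMA and the Transcriptome Analysis Console. No source used here gives their versions or a genome build. RMA compresses dim signals, and arrays carry no read depth, so their number limits the precision. From 72688 rows, 6732 control rows were left out by their identifiers. Of 65956 features, 30604 had 1 distinct gene symbol, 2146 several and 33206 none. All features entered limma 3.58.1 (R 4.3.3; lmFit, eBayes, two-sided, group as the only term, Benjamini-Hochberg, threshold 0.05), tested on simulated data. Members and lists were chosen with earlier results of these data known. All 30 measured members are named; arrays are given for those at an unadjusted p under 0.05, with differences over 0.5, regulators and elongases, and others as needed. Up to 3 genes per further list, those with the smallest p, are named, and any others are marked. The comparison of number 1 with number 2 was added after the values were seen. Alternatives were a replicate block, trended and robust priors, filters on dim features, 2 renormalizations, control rows kept, second probe sets and leaving out each array.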

Additional observations from a re-analysis of the deposited data

How the results depend on the processing

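The count of features past the adjusted threshold was 2 as reported, 19 with the replicate number as a block, and 0 with a prior that follows intensity, with either filter on dim features, after a second quantile normalization, with control rows kept and without any 1 array (0 to 0). A robust prior and centring of the arrays gave 2. Among the 30 genes, the count higher at an unadjusted p under 0.05 in limma went from 1 to 2 with the replicate block and with the second quantile normalization, and was 0 to 1 when an array was left out. The count lower went from 3 to 6 with the block and to 1 with the intensity prior and with the filter at the median signal, and was 1 to 3 when an array was left out. The median of the 30 genes was -0.36 to 0.083 when an array was left out. With the replicate block, Insig1 (p = 0.040), Dhcr7 (0.025), Acaca (0.044), Fads1 (0.0064) and Fads2 (0.0047) passed an unadjusted 0.05 in limma and Elovl1 (0.053) did not, at 8.34% of all features against 5.58% without it; the correlation of the number differences between the groups was 0.33 across features, and the labels do not say that numbers pair the arrays. Centring turned Mvk to -0.044 and Mvd to -0.015, and the second normalization turned Stard4 to 0.0016; these shift the median of all features from 0.02 to -0.03 and -0.0056. Scap and Elovl1 missed the unadjusted 0.05 with the intensity prior, the filter at the median signal and the second normalization, while Elovl7 and Elovl5 passed in all alternatives that kept the 4 arrays. Leaving out 1 array at a time, 18 genes changed the sign of their difference at least once. Their ranges were Srebf2 -0.48 to 0.056, Insig2 -0.19 to 0.072, Hmgcs1 -0.30 to 0.97, Mvk -0.34 to 0.36, Pmvk -0.66 to 0.33, Mvd -0.15 to 0.22, Idi1 -0.22 to 0.34, Fdps -0.61 to 0.048, Fdft1 -0.53 to 0.29. The others were Sqle -0.33 to 0.17, Lss -0.78 to 0.57, Cyp51 -0.70 to 0.063, Nsdhl -0.46 to 0.44, Hsd17b7 -0.33 to 0.10, Sc5d -0.29 to 0.13, Stard4 -0.36 to 0.29, Acly -0.35 to 0.014, Scd1 -1.47 to 0.39. The cause was not tested. Elovl3 has no value under the filters on dim features. Where an array is left out, the lone array of its group is taken to vary like the other group's.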
